A study of Mus musculus with 10 samples.

Results

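The genes of glucose transport, glycolysis and gluconeogenesis were followed in whole kidneys of mice that lack the kinase Lkb1 in the kidney tubules. The set was a list of 41 gene symbols: 8 sugar transporters, 17 enzymes of glycolysis, 7 enzymes that decide the fate of pyruvate, 4 bifunctional enzymes that set the level of fructose 2,6-bisphosphate, and 5 enzymes of gluconeogenesis. A gene was measured when the array annotation gave its symbol alone for at least 1 row of the table, and its value was the mean of its rows. That held for 37 of the 41 members, out of 30142 genes in all. Gpi1, Eno1, Pfkfb1 and Pfkfb2 were not analysed here.

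RNA came from whole kidneys of 5-week-old mice, 1 array per mouse, with 5 controls and 5 knockouts. The knockouts carried a floxed Lkb1 allele (gene symbol Stk11) and the KspCre transgene, in which the promoter of the tubule cadherin Cdh16 drives Cre. Controls were littermates without KspCre, with a floxed allele on 1 or both chromosomes (Lkb1 flox/+ or Lkb1 flox/flox), so Cre itself and the loss of Lkb1 cannot be told apart. The floxed mice were of mixed genetic background and the Cre line was C57Bl/6N, although the sample labels name C57Bl/6N for all kidneys. The sample titles call the second group a knockdown, and the design text of the series names MDCK cells, a dog kidney line. The description here follows the mouse protocol. Values are log2 expression after robust multi-array averaging (RMA), so a difference of 1 is a doubling of signal, and a difference is always knockout minus control.

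In the proximal tubule, filtered glucose is taken up across the apical membrane by the sodium-coupled carriers SGLT2 (Slc5a2) and SGLT1 (Slc5a1), and leaves toward the blood through GLUT2 (Slc2a2). The same cells make glucose from lactate, glutamine and glycerol with the enzymes of gluconeogenesis and have little glycolysis, while the more distal segments burn glucose. LKB1 activates AMPK, an energy sensor that in other tissues promotes glucose uptake and restrains gluconeogenesis, and the salt-inducible kinases, which restrain CREB-driven transcription of gluconeogenic genes in liver.

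As a whole the set shifted little, while 6 members fell. Slc2a4, Slc5a2, Hk1, Pfkm, Pfkl and Aldoc were lower in knockouts by limma with a Benjamini-Hochberg adjusted p under 0.05 over all 30142 genes, and 0 members were higher. The 6 are 16.2% of the measured members, where 2.67% of all genes were lower, 5.35% were higher and 8.03% passed in either direction. With dim genes left out, 8 members were lower, where 4.76% of the remaining genes were lower, and 2 were higher, where 8.97% were higher. After quantile normalisation 10 members were lower and 1 was higher, where 1299 of all 30142 genes were lower and 1619 were higher. Before adjustment, 12 members were lower and 4 were higher at a p under 0.05. The share of all genes at that unadjusted p was not counted. These counts, and those of single roles and lists below, therefore have no background beside them. The median difference of the members was -0.03, and that of all genes was also -0.03. The members range from Aldoc (-0.75) to G6pc (0.43).

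Knockout 5 stood nearer to the controls than the other knockouts in several of these genes. Its Stk11 value was 9.31, while the other knockouts measured 9.12, 9.21, 9.07 and 9.21 and the controls 9.40 to 9.48. Without knockout 5 the members counted 11 lower and 3 higher, where 1470 of all genes were lower and 1942 higher. Leaving out the knockout nearest to the controls widens a gene's difference by construction. Since knockout 5 was picked from these same values, calls gained without it, here and below, are not independent support. With replicate 5 of both groups left out, a setting added after the data were seen, the members counted 9 lower and 2 higher. In that setting 1132 of all genes were lower and 1729 higher. Without any other single kidney the members counted 5 to 7 lower and 0 or 1 higher, and all genes 437 to 763 lower and 1089 to 1419 higher. The deposited values carry no scan or slide label, so no batch could be tested.

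**Figure D1:**
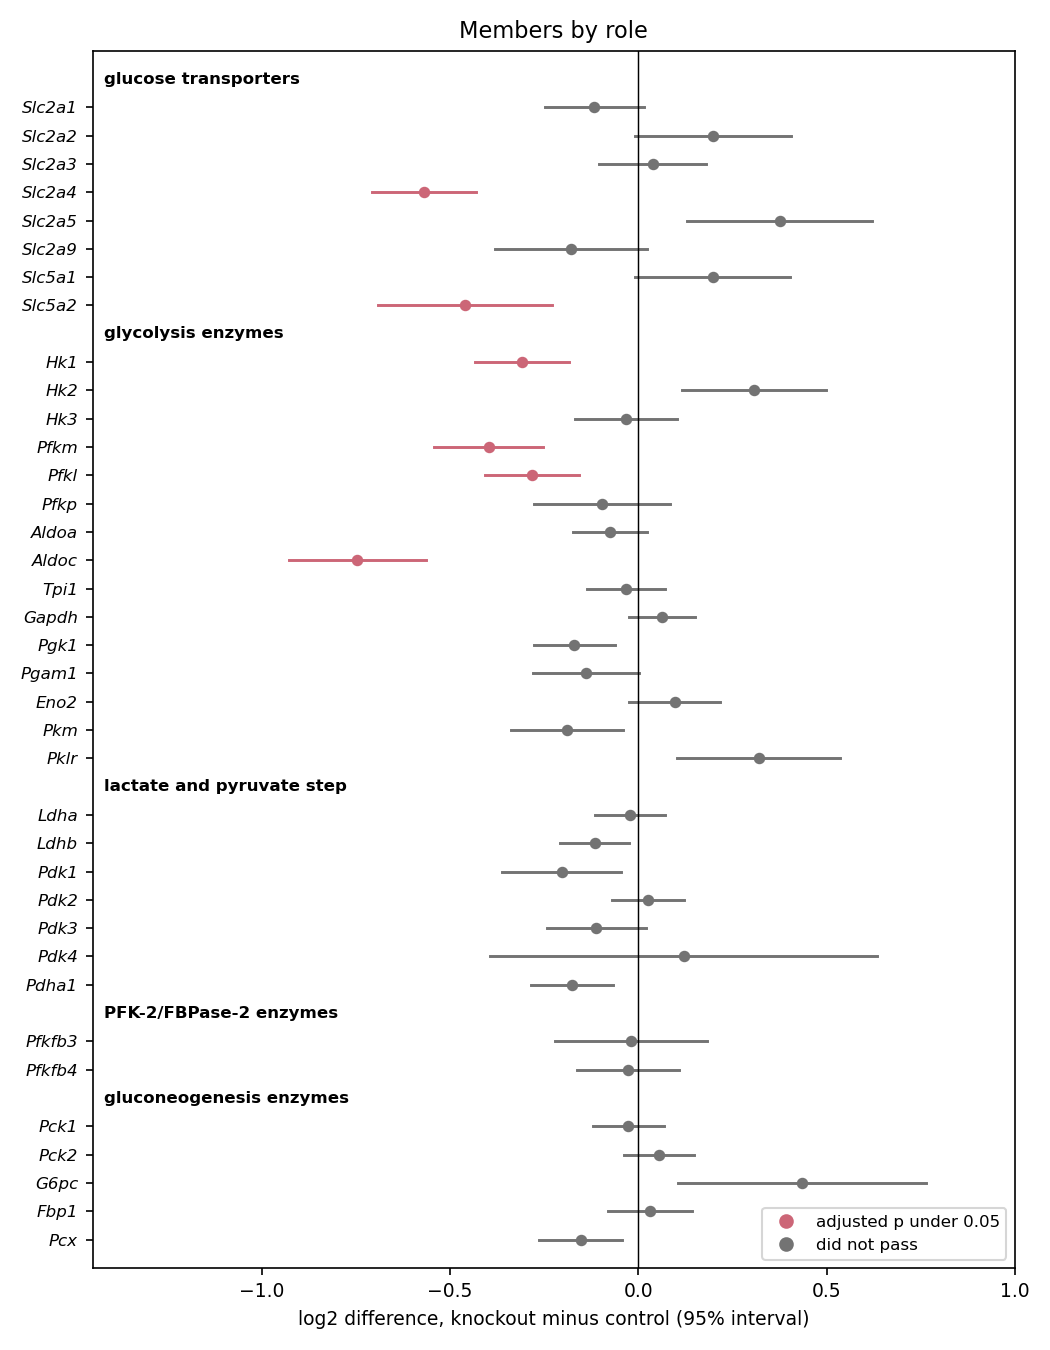
Each point is a measured member's log2 difference, knockout minus control, and each line its 95% interval from limma (n = 5 kidneys per group), grouped by role. The 6 members past the threshold, in red, all lie below 0, and Aldoc lies farthest from it at -0.75.

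Among the 8 transporters 2 fell, 0 rose and 6 did not pass, with a median difference of -0.04. Slc2a4 encodes GLUT4, the insulin-regulated glucose carrier of muscle and fat. It measured 7.85, 7.87, 7.70, 7.76 and 7.64 in controls 1 to 5 and 7.10, 7.22, 7.09, 7.19 and 7.37 in knockouts 1 to 5. Every knockout lay below every control, and knockout 5 was the highest of the knockouts. The means were 7.76 ± 0.10 and 7.19 ± 0.11 (SD, n = 5 each), a difference of -0.57 (SE 0.06, 95% interval -0.71 to -0.43, limma adjusted p = 0.00033), or 1.48-fold. The gene lies on chromosome 11 at 69942286 to 69948216 (mm10).

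Adipocytes, which also express Slc2a4, had a marker list of their own. By limma, 0 of 9 measured adipocyte markers passed in either direction. Relative to the control mean, their mean was 0.38 in control 4 and -0.25 in control 5, while the knockouts lay between -0.06 and 0.01. For this list the knockouts lay inside the range of the controls, whose ends were controls 4 and 5. The part of adipocytes in the values of Slc2a4 was not tested.

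Slc5a2 encodes SGLT2, which recovers most of the filtered glucose in the early proximal tubule. It measured 12.02, 11.95, 12.02, 12.11 and 12.00 in controls and 11.45, 11.53, 11.20, 11.67 and 11.95 in knockouts. Knockouts 1 to 4 lay below all controls, whereas knockout 5 reached the level of the lowest control. The means were 12.02 ± 0.06 and 11.56 ± 0.28 (SD, n = 5 each), a difference of -0.46 (SE 0.11, limma adjusted p = 0.0198), or 1.37-fold. The adjusted p was 0.0511 without knockout 1 and 0.0514 without knockout 2. Slc5a2 lies on chromosome 7 at 128265683 to 128272430 (mm10).

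The other carriers of the proximal tubule did not pass, and their estimates were mostly positive. Slc5a1, the SGLT1 carrier of the late proximal tubule, differed by 0.20 (SE 0.09, 95% interval -0.01 to 0.40, adjusted p = 0.237). Slc2a2, the basolateral GLUT2, also differed by 0.20 (SE 0.09, adjusted p = 0.234). The fructose carrier Slc2a5 (GLUT5) measured 9.19 to 9.56 in controls and 9.42 to 10.03 in knockouts, a difference of 0.38 (SE 0.11, adjusted p = 0.0637). It passed without knockout 3 (0.46, adjusted p = 0.0269), and with all kidneys when dim genes were left out (adjusted p = 0.0498). Slc2a5 passed in 3 of 16 alternatives, with adjusted p up to 0.147 in the others. Slc2a9, a urate carrier that also binds sugars, differed by -0.18 (adjusted p = 0.274), with knockout 5 (8.24) above all controls and the other knockouts (7.69 to 7.81) below all controls. Without knockout 5 it passed (-0.28, adjusted p = 0.00687). Slc2a9 passed in 2 of 16 alternatives, with adjusted p up to 0.449 in the others.

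The widely expressed GLUT1 gene Slc2a1 measured 10.10 to 10.44 in controls and 10.08 to 10.28 in knockouts, a difference of -0.12 (95% interval -0.25 to 0.01, adjusted p = 0.268). Slc2a3, the GLUT3 carrier of neurons and white blood cells, was dim, with a control mean above 68.2% of the negative control probe sets. It differed by 0.04 (95% interval -0.10 to 0.18, adjusted p = 0.765). Macrophage and phagocyte markers were higher in the same knockouts (19 of 21 measured markers passed upward, with the list's mean 0.50 to 1.16 above the control mean). Their part in the values of Slc2a3 and of other genes of white blood cells was not tested.

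Of 11 other measured sugar carriers from a list of 12, 2 fell and 1 rose. Slc2a13 encodes a proton-coupled myo-inositol carrier and fell from 7.20 ± 0.16 to 6.62 ± 0.05 (SD, n = 5 each; difference -0.58, SE 0.07, limma adjusted p = 4.99e-04). Slc2a12, the GLUT12 carrier, fell from 7.05 ± 0.09 to 6.59 ± 0.19 (difference -0.46, SE 0.08, adjusted p = 0.00653). In both genes every knockout lay below every control. Slc5a10, the SGLT5 carrier of mannose and fructose, rose by 0.22 (SE 0.06, adjusted p = 0.0372). That call was lost in 10 of 16 alternatives, among them the removal of any single kidney except control 2 or knockout 3, with adjusted p up to 0.117.

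**Figure D2:**
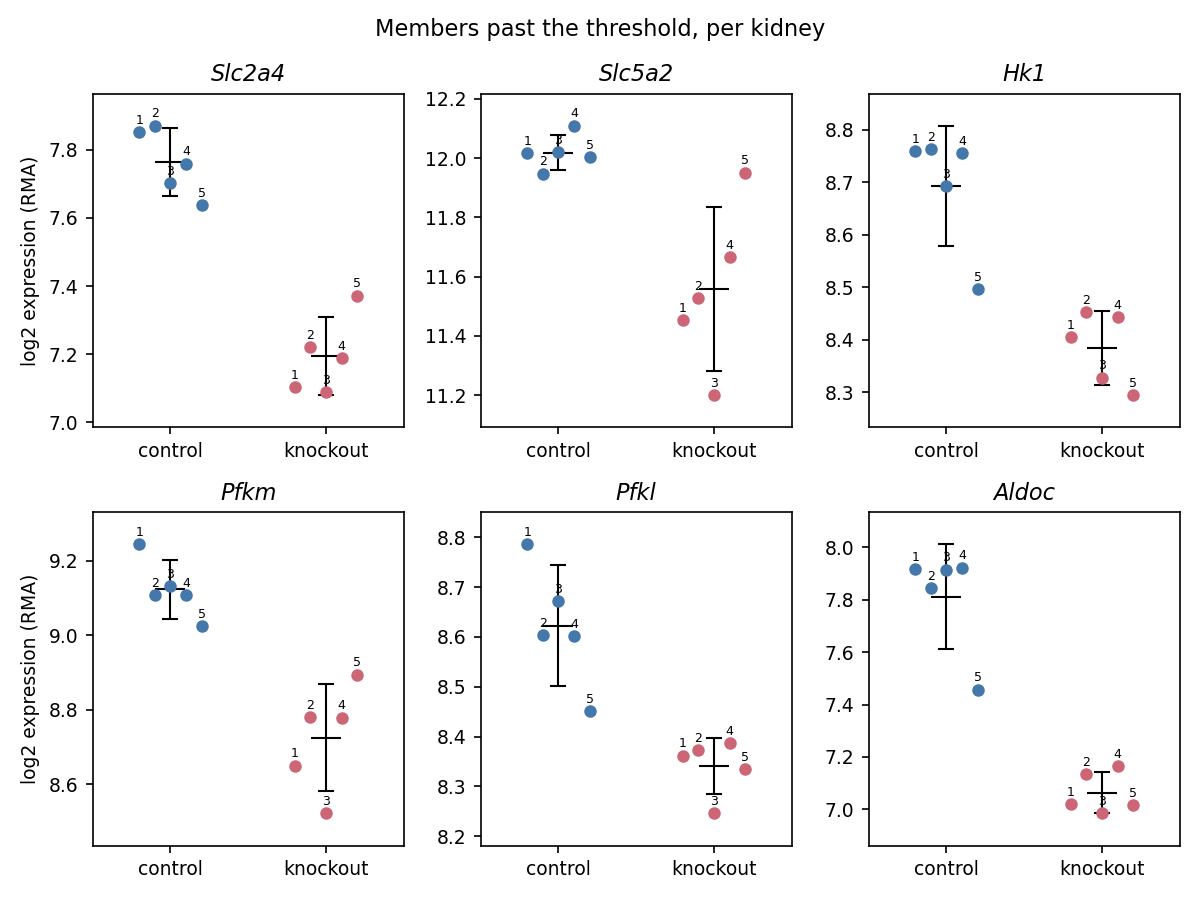
Log2 expression of the 6 members past the threshold in each kidney, numbered by replicate, with the group mean and SD in black (n = 5 each); each panel has its own axis. The groups do not overlap for Slc2a4, Hk1, Pfkm, Pfkl and Aldoc, and knockout 5 (11.95) reaches the lowest control for Slc5a2.

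Of the 15 measured enzymes of glycolysis, 4 fell, 0 rose and 11 did not pass, with a median difference of -0.10. The 4 act at the first steps, from glucose to the triose phosphates. Aldoc, the aldolase isoenzyme best known from brain, which splits fructose 1,6-bisphosphate, changed most. It measured 7.92, 7.84, 7.91, 7.92 and 7.46 in controls and 7.02, 7.14, 6.99, 7.16 and 7.02 in knockouts. Control 5 was well below the other controls, and still above all knockouts. The means were 7.81 ± 0.20 and 7.06 ± 0.08 (SD, n = 5 each), a difference of -0.75 (SE 0.08, 95% interval -0.93 to -0.56, limma adjusted p = 3.48e-04), or 1.68-fold. The ubiquitous aldolase gene Aldoa differed by -0.08 (95% interval -0.17 to 0.02, adjusted p = 0.342).

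Hk1 encodes the hexokinase found in most tissues, which phosphorylates glucose and binds to mitochondria. It measured 8.76, 8.76, 8.69, 8.76 and 8.50 in controls and 8.40, 8.45, 8.33, 8.44 and 8.29 in knockouts. The groups were apart by a small margin, because control 5 was low. The means were 8.69 ± 0.11 and 8.38 ± 0.07, a difference of -0.31 (SE 0.06, adjusted p = 0.00653), or 1.24-fold.

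Hk2, the insulin- and hypoxia-responsive isoenzyme, had an estimate of the opposite sign and missed the threshold (0.31, SE 0.09, adjusted p = 0.0510). It measured 6.18, 6.11, 6.24, 6.13 and 5.98 in controls and 6.57, 6.55, 6.58, 6.36 and 6.11 in knockouts. Knockouts 1 to 4 lay above all controls and knockout 5 did not. Without knockout 5 the difference was 0.39 (adjusted p = 0.00265). With all kidneys Hk2 passed after quantile normalisation (0.30, adjusted p = 0.0335) and with dim genes left out (adjusted p = 0.0383). It passed in 5 of 16 alternatives, with adjusted p up to 0.123 in the others. Hk2 was dim, with a control mean above 72.0% of the negative control probe sets, which makes the size uncertain. Hk3, the hexokinase of white blood cells, was also dim (69.3%) and differed by -0.03 (95% interval -0.17 to 0.10, adjusted p = 0.781).

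The phosphofructokinase subunits Pfkm, Pfkl and Pfkp, named after muscle, liver and platelets, form the tetramer that commits sugar to glycolysis. Pfkm measured 9.24, 9.11, 9.13, 9.11 and 9.02 in controls and 8.65, 8.78, 8.52, 8.78 and 8.89 in knockouts. The groups did not overlap, and the highest knockout was again knockout 5. Its means were 9.12 ± 0.08 and 8.72 ± 0.14 (difference -0.40, SE 0.07, adjusted p = 0.00369), or 1.32-fold. Pfkl measured 8.79, 8.60, 8.67, 8.60 and 8.45 in controls and 8.36, 8.37, 8.25, 8.39 and 8.33 in knockouts, also apart. Its means were 8.62 ± 0.12 and 8.34 ± 0.06 (difference -0.28, SE 0.06, adjusted p = 0.0106), or 1.22-fold. Pfkp differed by -0.10 (95% interval -0.28 to 0.08, adjusted p = 0.517).

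Groups of members that do not overlap were found 6 times, for Slc2a4, Hk1, Pfkm, Pfkl, Aldoc and Pdha1, all lower. Of all genes 3.50% were apart and lower, 5.07% apart and higher and 8.57% apart in either direction. The limma calls of Slc2a4, Hk1, Pfkm, Pfkl and Aldoc held in all 16 alternatives, including the removal of any single kidney.

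Promoter sequences from the RefSeq promoter table (GRCm38.p6, the mm10 assembly) are shown for Aldoc, Hk1 and Pfkl, enzymes that fell. That of Hk2 is shown to set the hexokinase isoenzymes Hk1 and Hk2 side by side. Pfkm also has an entry, but its window overlaps the neighbouring gene Senp1 and is not shown. Each sequence is the 250 bases before the gene's outermost start in that table, 5′ to 3′ on the gene's strand, with motif letters in capitals. The letters searched on both strands were ACGTG, the core of the hypoxia response element, and CACGTG, the E-box, which contains those same letters. The others were TGACG, the core of the cyclic AMP response element, the CCAAT box, the GC box GGGCGG and the TATA letters TATAA. The Hk1 gene as annotated reaches a few bases into its window, because that start lies inside the annotated gene. The positions are chr11:78322823-78323072 on the plus strand for Aldoc and, on the minus strand, chr10:62379909-62380158 for Hk1, chr10:78009808-78010057 for Pfkl and chr6:82774455-82774704 for Hk2.
Aldoc: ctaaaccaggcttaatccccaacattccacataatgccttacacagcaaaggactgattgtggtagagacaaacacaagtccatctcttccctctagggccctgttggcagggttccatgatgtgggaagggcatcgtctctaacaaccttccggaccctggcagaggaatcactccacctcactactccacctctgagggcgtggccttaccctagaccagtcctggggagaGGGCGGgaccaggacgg
Hk1: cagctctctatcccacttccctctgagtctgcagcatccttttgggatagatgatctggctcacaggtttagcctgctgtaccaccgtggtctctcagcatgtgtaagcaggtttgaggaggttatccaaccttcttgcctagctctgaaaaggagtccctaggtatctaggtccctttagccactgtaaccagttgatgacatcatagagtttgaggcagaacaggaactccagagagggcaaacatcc
Pfkl: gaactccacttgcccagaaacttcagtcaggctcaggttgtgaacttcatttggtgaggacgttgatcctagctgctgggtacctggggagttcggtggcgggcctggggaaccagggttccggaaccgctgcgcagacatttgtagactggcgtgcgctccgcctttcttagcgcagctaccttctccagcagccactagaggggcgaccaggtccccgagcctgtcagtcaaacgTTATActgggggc
Hk2: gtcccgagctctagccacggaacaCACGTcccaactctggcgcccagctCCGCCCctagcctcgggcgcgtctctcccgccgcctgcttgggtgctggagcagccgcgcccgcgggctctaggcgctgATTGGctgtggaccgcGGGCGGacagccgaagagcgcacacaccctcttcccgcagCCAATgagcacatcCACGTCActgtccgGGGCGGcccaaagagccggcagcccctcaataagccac

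The outermost windows of Hk1 and Hk2 differ in these letters. The Hk2 window holds 2 matches to the hypoxia letters, 1 to those of the cyclic AMP element, which overlaps a hypoxia match, 2 CCAAT boxes and 3 GC boxes. The outermost Hk1 window holds 0 matches to any of them. The window of Hk3, which is not shown, holds the hypoxia letters and the TATA letters. Hk1 and Aldoc each have 2 starts in the table, and the letters of the inner starts are not shown. The Aldoc window holds 1 GC box, which begins 17 bases before the start, and the Pfkl window holds the TATA letters on the opposite strand, 13 bases before it. Over the outermost starts of all 27025 genes in the table, 16.5% of windows hold the hypoxia letters, 6.0% the E-box and 17.8% the cyclic AMP letters. The CCAAT box is in 34.5%, the GC box in 33.0% and the TATA letters in 23.5%. Of the 38 members with an entry, which leave out Slc2a4 and Slc5a2, 12 hold the hypoxia letters (31.6%). The E-box is in 5 (13.2%), the cyclic AMP letters in 5 (13.2%), the CCAAT box in 15 (39.5%), the GC box in 18 (47.4%) and the TATA letters in 10 (26.3%). All 5 members with the E-box are among the 12 with the hypoxia letters. Of the members that fell, Pfkm is the only one among these 12. Such matches describe letters and are not evidence of binding.

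Of the enzymes that act after aldolase, none of the measured members passed by limma, and 3 had an unadjusted p under 0.05, Pgk1 and Pkm downward and Pklr upward. Gapdh, the most widely used reference gene, differed by 0.06 (95% interval -0.02 to 0.15, adjusted p = 0.381) with control values from 12.14 to 12.26. After quantile normalisation its difference was -0.01, so its sign depends on the scaling. Tpi1, the triose isomerase, differed by -0.03 (95% interval -0.14 to 0.07, adjusted p = 0.715). Pgam1, a phosphoglycerate mutase, differed by -0.14 (adjusted p = 0.219), and Eno2, the dim neuronal enolase, by 0.10 (adjusted p = 0.327). Gapdh, Pgam1, Pgk1 and other enzymes of this step have many near-identical copies in the mouse genome, and signal shared with these makes their values uncertain.

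Pgk1, the phosphoglycerate kinase that makes the first ATP of glycolysis, fell just short of the threshold (-0.17, SE 0.05, adjusted p = 0.0569). Its value is the mean of 2 rows, of which 1 lies on chromosome X, where Pgk1 itself is annotated, and the other on chromosome 12. The X row went from 11.42 ± 0.04 to 11.27 ± 0.06 and the chromosome 12 row from 12.12 ± 0.08 to 11.93 ± 0.12 (SD, n = 5 each). With the X row alone, a setting added after the data were seen, the difference was -0.15 (adjusted p = 0.0435), and without knockout 4 it was -0.20 (adjusted p = 0.0371). With both rows and all kidneys it was -0.22 after quantile normalisation (adjusted p = 0.0152), and the adjusted p was 0.0399 with dim genes left out. Pgk1 passed in 4 of 17 alternatives, with adjusted p up to 0.12 in the others.

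The pyruvate kinase genes had estimates of opposite sign, and neither passed. Pkm, whose products serve most tissues, measured 9.07 to 9.44 in controls and 9.01 to 9.21 in knockouts (difference -0.19, SE 0.07, adjusted p = 0.119). Control 5 (9.07) was the lowest control, and without it Pkm passed (-0.25, adjusted p = 0.0236). Pklr, the isoenzyme of liver, red cells and proximal tubule, measured 9.47 to 9.74 in controls and 9.64 to 10.19 in knockouts (difference 0.32, SE 0.10, adjusted p = 0.0716). Without knockout 5, which measured 9.64, it passed (0.39, adjusted p = 0.0154). Pkm passed in 2 of 16 alternatives and Pklr in 3, with adjusted p up to 0.219 and 0.158 in the others. Of 6 measured erythroid markers 1 was lower and 0 were higher, and their mean was -0.22 to 0.01 in knockouts relative to the control mean. The lower marker was Slc4a1 (-0.74), an anion exchanger of red cells that is also on the intercalated cell list, while Alas2, the haem synthesis enzyme of red cells, differed by 0.40 (adjusted p = 0.312). Their part in the values of Pklr was not tested.

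Differences between related genes within each kidney remove an offset shared by all genes of an array. They do not remove a scaling that depends on brightness. The value of Hk2 minus that of Hk1 was 0.38 to 0.82 in knockouts, relative to a control mean of 0 and control values from -0.09 to 0.11. Pklr minus Pkm was 0.32 to 0.77 in knockouts and -0.11 to 0.09 in controls. Aldoc minus Aldoa was -0.74 to -0.58 in knockouts and -0.26 to 0.13 in controls. In these pairs every knockout lay on the same side of all controls. Slc5a1 minus Slc5a2 was 0.72 to 0.84 in knockouts 1 to 4 and 0.11 in knockout 5, which lay inside the range of the controls (-0.18 to 0.22). The pairs of Pfkp or Pfkl with Pfkm, Ldhb with Ldha, Slc2a1 with Slc2a2 and Pck2 with Pck1 overlapped between the groups. These differences are made from the values of the same single genes, add no separate measurement and were not tested.

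**Figure D3:**
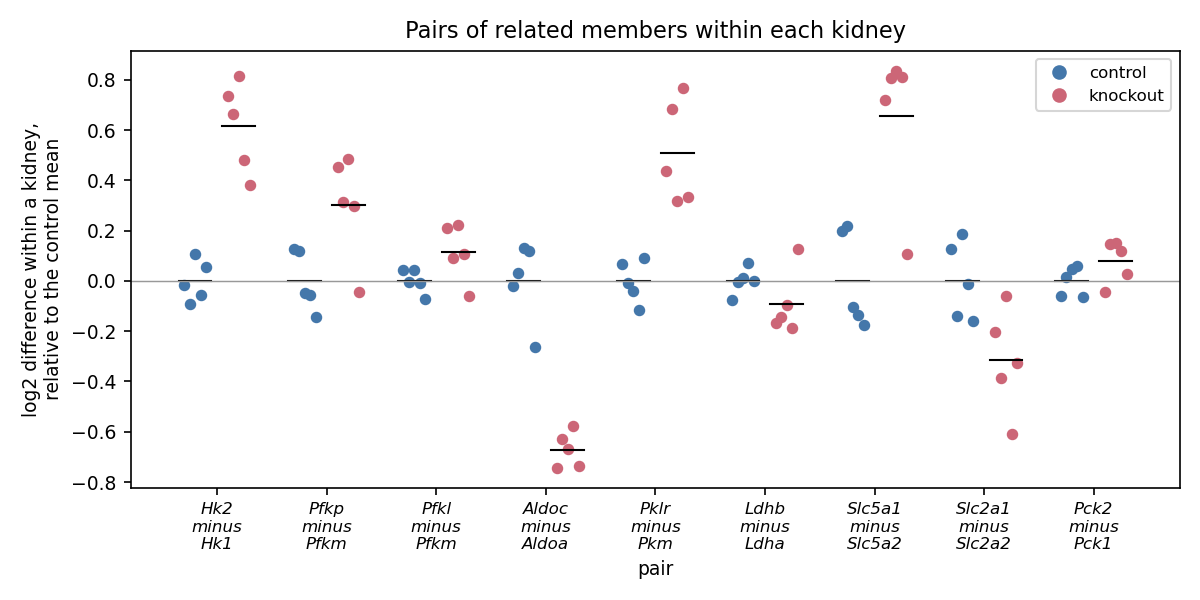
For 9 pairs of related members, the log2 value of the first gene minus that of the second in each kidney, relative to the mean of the 5 controls; black lines are group means. Hk2 minus Hk1, Pklr minus Pkm and Aldoc minus Aldoa do not overlap between the groups, with mean shifts of 0.62, 0.51 and -0.67.

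Of 11 other measured genes of glycolysis and fructose use, from a list of 17, 1 fell, 0 rose and 10 did not pass. Pgam2, the muscle phosphoglycerate mutase, fell from 8.62 ± 0.12 to 8.24 ± 0.18 (SD, n = 5 each; difference -0.38, SE 0.08, limma adjusted p = 0.0151), and the groups did not overlap. Of the bifunctional enzymes that tune phosphofructokinase, Pfkfb3 measured 7.14 to 7.62 in controls and 7.18 to 7.60 in knockouts and differed by -0.02 (95% interval -0.22 to 0.18, adjusted p = 0.921) and Pfkfb4 differed by -0.03 (95% interval -0.16 to 0.11, adjusted p = 0.819). Pfkfb4 measured 7.02 to 7.33 in controls and 7.16 to 7.32 in knockouts, so the knockouts lay inside the range of the controls.

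None of the 7 enzymes of the lactate and pyruvate step passed by limma, and their median difference was -0.11. Before adjustment 3 had a p under 0.05, all of them lower. Pdha1, the catalytic subunit of pyruvate dehydrogenase, which makes acetyl-CoA, came nearest. It measured 11.70, 11.61, 11.68, 11.65 and 11.58 in controls and 11.49, 11.48, 11.30, 11.51 and 11.56 in knockouts. The groups did not overlap, although knockout 5 came close to control 5, the lowest control. The means were 11.64 ± 0.05 and 11.47 ± 0.10 (difference -0.18, SE 0.05, adjusted p = 0.0530). The adjusted p was 0.0292 without knockout 5. With all kidneys it was 0.0221 after quantile normalisation (-0.22) and 0.0372 with dim genes left out. Pdha1 passed in 4 of 16 alternatives, with adjusted p up to 0.119 in the others.

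Other subunits of the same complex passed. Of 14 measured genes on a list of pyruvate transport and the pyruvate dehydrogenase complex, 4 fell, 0 rose and 10 did not pass, with a median difference of -0.15. Pdhx, which tethers the E3 enzyme, fell by 0.27 (SE 0.06, adjusted p = 0.0195), Pdpr, a regulator of the complex's phosphatase, by 0.23 (SE 0.06, adjusted p = 0.0373), Dlat, the E2 core, by 0.19 (SE 0.05, adjusted p = 0.0450) and Dld, the E3 enzyme, by 0.17 (SE 0.04, adjusted p = 0.0332). Pdhb, the other E1 subunit, differed by -0.14 (adjusted p = 0.235). The groups did not overlap for Pdhx, Dlat and Dld, where 3.50% of all genes were apart and lower. These calls were close to the threshold: Pdhx lost its call without control 1 or knockout 2 (adjusted p up to 0.0521), Dld in 7 of 16 alternatives (up to 0.0929), Pdpr in 8 (up to 0.0977) and Dlat in 10 (up to 0.103).

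The kinases that switch pyruvate dehydrogenase off did not pass. Pdk4, which rises with fasting, varied widely, from 11.35 to 12.25 in controls and from 11.11 to 12.35 in knockouts. Its interval (-0.39 to 0.63) leaves room for a change of either sign. Pdk1, a hypoxia-responsive kinase, differed by -0.20 (SE 0.07, adjusted p = 0.112) and passed without knockout 5 (-0.24, adjusted p = 0.0490). That was 1 of 16 alternatives, and in the others its adjusted p reached 0.237. Pdk2 (0.03) and Pdk3 (-0.11) had adjusted p of 0.758 and 0.299. Of the lactate dehydrogenase genes, Ldha, which favours lactate formation, differed by -0.02 (95% interval -0.11 to 0.07, adjusted p = 0.786). Ldhb, which favours lactate use, differed by -0.12 (SE 0.04, adjusted p = 0.121). Its knockouts 1 to 4 (11.90 to 11.91) lay below all controls (11.99 to 12.10). Ldhb passed without knockout 5, which measured 12.04 (-0.14, adjusted p = 0.0421), and after quantile normalisation (-0.18, adjusted p = 0.0186). In the other alternatives the adjusted p of Ldhb reached 0.236.

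None of the 5 enzymes of gluconeogenesis passed by limma, and their median difference was 0.03. Before adjustment 2 had a p under 0.05, G6pc upward and Pcx downward. G6pc is the glucose-6-phosphatase that releases free glucose. It measured 12.69, 13.04, 12.23, 12.38 and 12.24 in controls and 12.99, 13.03, 13.01, 13.15 and 12.56 in knockouts. Knockouts 1 to 4 were near or above control 2, the highest control, whereas knockout 5 lay within the controls. The means were 12.51 ± 0.35 and 12.95 ± 0.23 (SD, n = 5 each), a difference of 0.43 (SE 0.15, 95% interval 0.10 to 0.76, limma adjusted p = 0.104). It passed without control 2 (0.56, adjusted p = 0.0202) and without knockout 5 (0.53, adjusted p = 0.0351). G6pc passed in 3 of 16 alternatives, with adjusted p up to 0.223 in the others. Controls 1 and 2 were also the highest controls for Pdk4, Slc2a5, Slc5a1 and Pklr.

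Pcx, the pyruvate carboxylase that feeds gluconeogenesis and the citric acid cycle, had the smallest p of the 5. It measured 11.29, 11.31, 11.17, 11.22 and 11.25 in controls and 11.03, 11.15, 10.96, 11.14 and 11.19 in knockouts. Knockout 5 (11.19) lay above control 3 (11.17), and the other knockouts lay below all controls. The difference was -0.15 (SE 0.05, adjusted p = 0.0872), without knockout 5 it was -0.18 (adjusted p = 0.0467), and after quantile normalisation with all kidneys -0.22 (adjusted p = 0.00692). Pcx passed in these 2 of 16 alternatives, with adjusted p up to 0.178 in the others.

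The remaining gluconeogenic enzymes had narrow intervals around 0. Pck1, the cytosolic phosphoenolpyruvate carboxykinase of the proximal tubule, measured 13.28 to 13.42 in controls and 13.26 to 13.39 in knockouts (95% interval of the difference -0.12 to 0.07, adjusted p = 0.751). Fbp1, fructose bisphosphatase, differed by 0.03 (95% interval -0.08 to 0.14, adjusted p = 0.749). Pck2, the mitochondrial isoenzyme of Pck1, differed by 0.05 (95% interval -0.04 to 0.15, adjusted p = 0.475). Of 11 other measured genes on a gluconeogenesis list of 13, 2 fell and 0 rose. They were the cytosolic malate dehydrogenase Mdh1 (-0.14, SE 0.04, adjusted p = 0.0477) and the malate carrier Slc25a11 (-0.19, SE 0.05, adjusted p = 0.0452). Both calls were lost when any single kidney except knockout 5 was left out (adjusted p up to 0.112 and 0.0947).

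**Figure D4:**
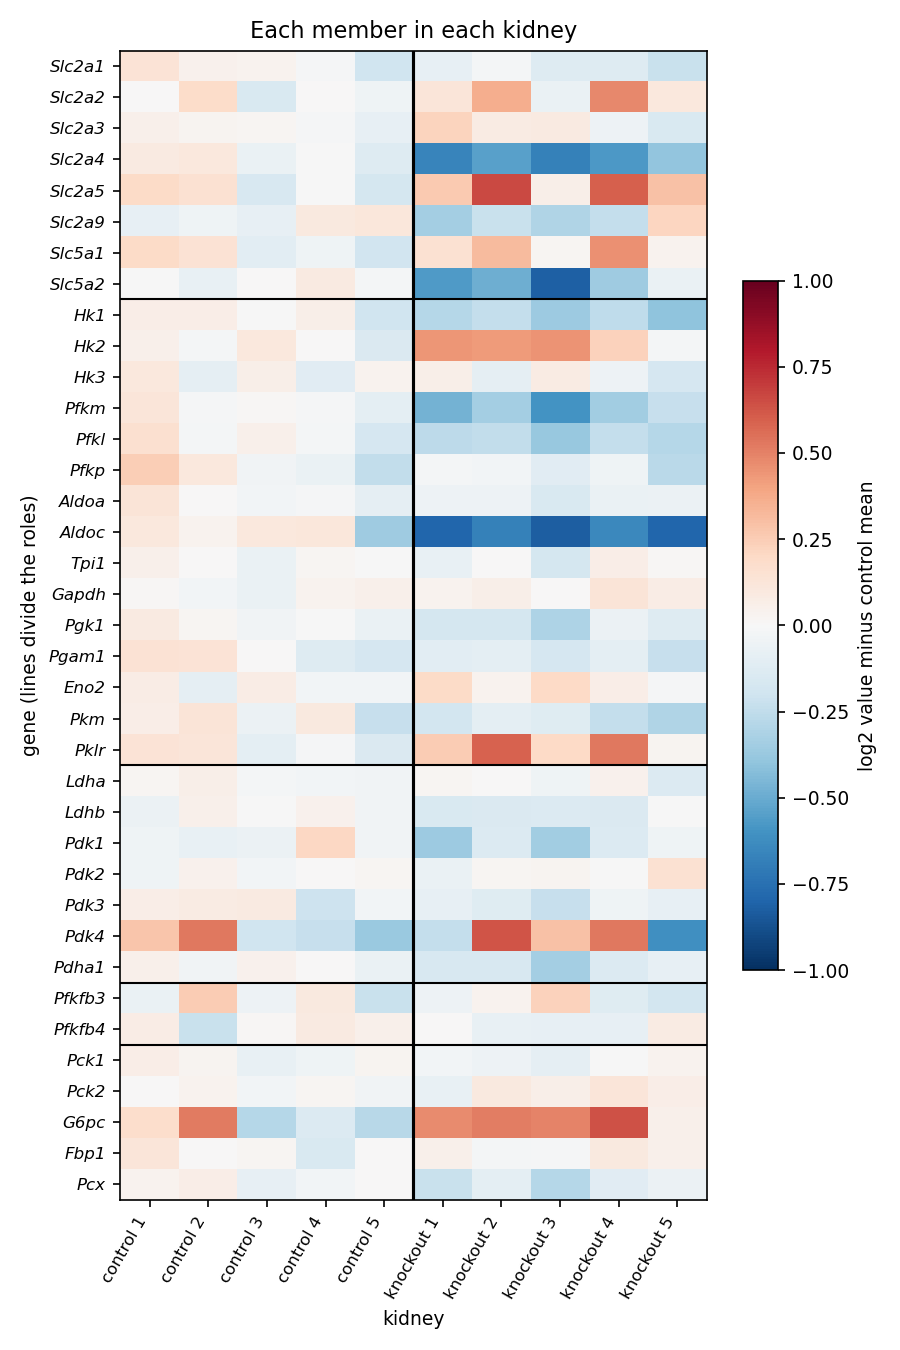
Each cell is a member's log2 value in a kidney minus the mean of the 5 controls, with colours ending at -1 and 1; horizontal lines divide transporters, glycolysis, the lactate and pyruvate step, bifunctional enzymes and gluconeogenesis. Blue bands run across the 5 knockouts for Slc2a4, Hk1, Pfkm, Pfkl and Aldoc. G6pc, Pklr and Slc2a5, which did not pass, are mostly red there. They are near the control mean in knockout 5 for G6pc and Pklr and in knockout 3 for Slc2a5.

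Glycogen and pentose phosphate genes showed single calls. Pygl, the glycogen phosphorylase of liver, measured 8.11, 8.32, 8.21, 8.41 and 8.11 in controls and 7.48, 7.67, 7.47, 7.58 and 7.81 in knockouts, with no overlap. Its difference was -0.63 (SE 0.08, limma adjusted p = 6.00e-04), or 1.55-fold, and the call held in all 16 alternatives. Pygb, the isoenzyme named after brain, rose by 0.20 (SE 0.06, adjusted p = 0.0469), a call lost in 12 of 16 alternatives (adjusted p up to 0.115), including the removal of any single kidney except control 4 or knockout 5. The other 10 of 12 measured glycogen genes did not pass. Of 6 measured pentose phosphate genes, H6pd, the glucose-6-phosphate dehydrogenase of the endoplasmic reticulum, rose from 9.75 ± 0.15 to 10.16 ± 0.14 (difference 0.41, SE 0.08, adjusted p = 0.00885), while the other 5 did not pass.

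None of 25 measured regulators of glucose metabolism passed by limma, from a list of 27 that holds the hypoxia factors, the carbohydrate response factors Mlxipl and Mlx, the CREB coactivators and insulin signalling genes. Their median difference was 0.03. Before adjustment 8 had a p under 0.05, 4 in each direction, and the share of all genes at that p was not counted. Lower were Irs1 (-0.33, adjusted p = 0.0541), Egln1 (-0.22, 0.0540), Ppargc1a (-0.20, 0.0942) and Tbc1d4 (-0.16, 0.0603). Higher were Mlxip (0.26, 0.0876), Myc (0.18, 0.0536), Crtc3 (0.13, 0.0590) and Hif1a. The groups did not overlap for Egln1, Myc and Crtc3, where 8.57% of all genes were apart in either direction. Hif1a, the hypoxia factor that drives Hk2, Pdk1 and Ldha, measured 9.63 to 9.86 in controls and 9.78 to 9.89 in knockouts (difference 0.11, adjusted p = 0.213).

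Markers of several nephron segments were lower in the same kidneys, and in bulk RNA fewer cells of a type and less RNA per cell cannot be told apart. Of 9 measured thick ascending limb markers 8 were lower and 1 higher, with the list's mean at -0.63 to -0.36 in knockouts and -0.12 to 0.05 in controls, relative to the control mean. Of 10 intercalated cell markers 9 were lower and 0 higher (-0.74 to -0.34 in knockouts, -0.08 to 0.11 in controls). Of 8 markers of the distal convoluted and connecting tubule 4 were lower and 0 higher (-0.42 to -0.18 in knockouts, -0.10 to 0.04 in controls). Of 19 proximal tubule markers 4 were lower and 1 higher (-0.26 to -0.01 in knockouts, -0.05 to 0.06 in controls). Of 9 principal cell markers 2 were higher and 1 lower (-0.09 to 0.27 in knockouts, -0.16 to 0.10 in controls). The higher ones were the water channels Aqp2 (0.94, adjusted p = 0.0102) and Aqp3 (0.54, adjusted p = 8.84e-04). The lower one was Scnn1a (-0.39, adjusted p = 0.00289). The differences of this list were positive for 5 markers and negative for 4. Of 9 urothelium markers 6 were higher and 0 lower (0.44 to 0.74 in knockouts, -0.41 to 0.40 in controls). Of 11 fibroblast markers 9 were higher and 0 lower (0.65 to 1.29 in knockouts, -0.20 to 0.10 in controls). The part of these shifts in the fall of Slc2a4, Slc5a2, Hk1, Pfkm, Pfkl and Aldoc was not tested.

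Knockout 5 had the smallest shift of the knockouts for the thick ascending limb, distal tubule, intercalated cell, proximal tubule, macrophage and fibroblast lists. Its macrophage list lay 0.50 above the control mean and its intercalated cell list 0.34 below it. Among the members that fell it was likewise the highest knockout for Slc2a4, Slc5a2 and Pfkm. For Hk1, in contrast, it was the lowest knockout, and for Pfkl and Aldoc only knockout 3 was lower.

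**Figure D5:**
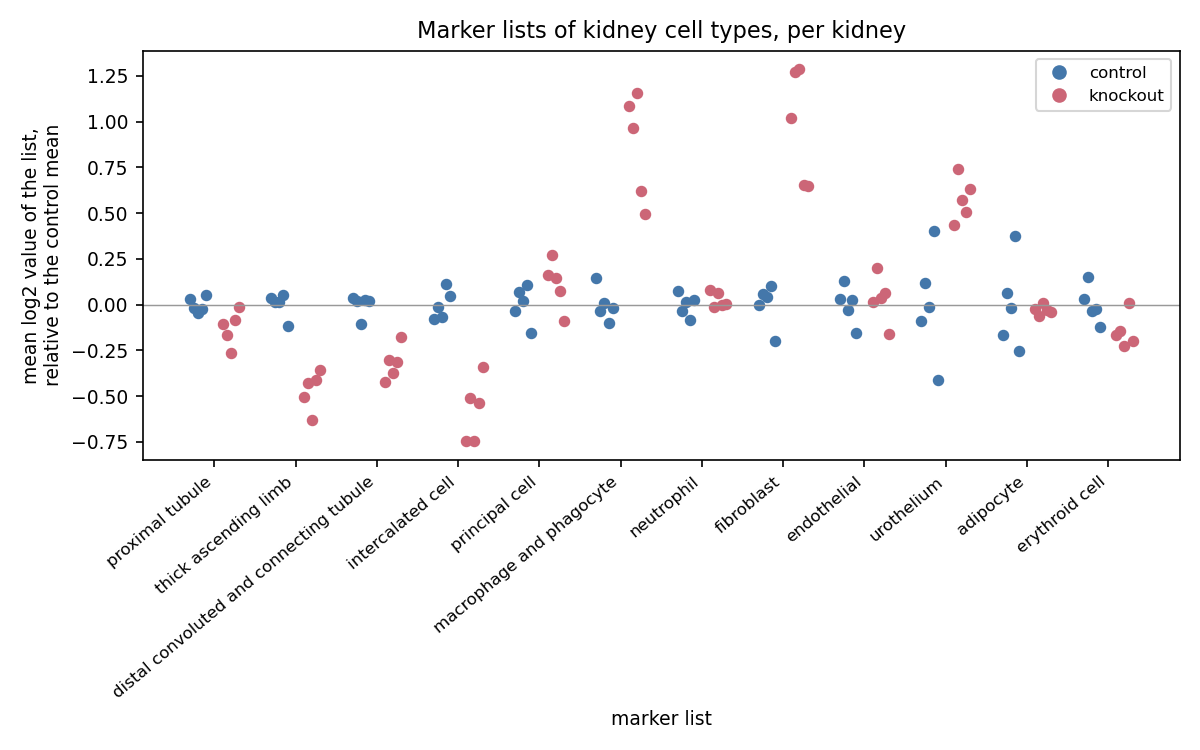
Each point is the mean log2 value of a marker list in a kidney, relative to the mean of the 5 controls; controls are blue and knockouts red. The thick ascending limb, distal and intercalated lists lie below all controls in the 5 knockouts, and the macrophage, fibroblast and urothelium lists above all controls.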

How the data were processed

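RNA from 10 mouse kidneys (500 ng total RNA each) was measured on Affymetrix whole-transcript arrays. The authors deposited log2 values per transcript cluster made by RMA on the mm10 build, per the submitters' processing notes. The RMA software's version was not given in the sources used here. The scale was taken from the values. RMA averages probes along a transcript, so isoforms and deleted exons were not measured apart.

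Of 72688 rows, 30604 carried 1 gene symbol, 2146 several and 39938 none; symbols of 827 rows were updated through Entrez identifiers. Rows with 1 symbol gave 30142 genes, 355 of them with several rows, which were averaged. No genes were filtered out. Knockouts and controls were compared with limma 3.58.1 in R 4.3.3 (lmFit, eBayes with a mean-variance trend), two-sided, with Benjamini-Hochberg adjustment over all genes, a threshold of 0.05 and no covariate; differences are given with the SE and 95% interval of that fit. The code was tested on simulated data. Tables and plots used Python 3.11.15, pandas 2.3.3 and matplotlib 3.10.9.

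The members and all lists were chosen with earlier results of these data known. Every member past the threshold was to be named with its value in each kidney, and otherwise the member of a role with the smallest p; also named were the brightest member of a role, members whose groups did not overlap and members with an unadjusted p under 0.05. Of other lists, genes past the threshold were named, at most 6 per list. Other genes named by value were chosen for their role or their unadjusted p after their values were seen. Negative controls were 5222 probe sets, with array medians from 5.10 to 5.37. Correlations between arrays over all rows were 0.987 to 0.995. The number of arrays limits the precision. Labels name 5 mice per genotype; replicate numbers are not stated to pair mice. Alternatives were no trend, quantile normalisation, dim genes left out, the brightest row per gene, the replicate number as a block and the removal of each kidney.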

Additional observations from a re-analysis of the deposited data

Results flagged for a closer look

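Within the 5 kidneys of a group, 8 of the 74 groups of values (37 members in 2 groups) held a kidney far from the other 4 for the group's range; chance gives about 1 in 20 groups. Knockout 5 was such a kidney for 3 members: it was the highest knockout for Slc2a9 (8.24, next 7.81) and Ldhb (12.04, next 11.91) and the lowest for G6pc (12.56, next 12.99). Control 5 was the lowest control for Hk1 (8.50, next 8.69) and Aldoc (7.46, next 7.84). The others were control 4 for Pdk1 (8.30, the highest), control 2 for Pfkfb4 (7.02, the lowest) and knockout 3 for Aldoa (9.70, the lowest). Without knockout 5, which was picked from these same values, Slc2a9, Ldhb and G6pc passed the threshold. Hk1 and Aldoc passed with and without control 5.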

How the results depend on the processing

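Members higher in knockouts numbered 0, and 1 after quantile normalisation, 2 with dim genes left out, 4 with the replicate number as a block, 2 with replicate 5 of both groups left out, and 0 to 3 when each kidney was left out. Members lower numbered 6, and 10 after quantile normalisation, with 5 to 11 when each kidney was left out. Over all genes 1614 were higher and 806 lower. After quantile normalisation 1619 were higher and 1299 lower, and increases made up 55.5% of the calls against 66.7%. Higher genes numbered 1826 with the replicate block, 1729 with replicate 5 of both groups left out, and 1766 of 19695 with dim genes left out. When each kidney was left out, 1089 to 1942 genes were higher and 437 to 1470 lower. 

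The 4 members higher with the replicate block were Slc2a5 (adjusted p = 0.0217), Hk2 (0.0133), Pklr (0.0225) and G6pc (0.0496). The deviations of same-numbered kidneys had correlations over 0.1 in 4 of 5 pairs, with a range of -0.08 to 0.31, and 3 of 5 controls correlated best with the knockout of their own number. Since the labels state no pairing and 1 pair was below 0.1, the numbers were not taken as pairs. Differences near 0 changed sign in 9 members, none past the threshold with either sign: after quantile normalisation Gapdh (-0.014), Pdk2 (-0.018) and Fbp1 (-0.048), and without replicate 5 of both groups Hk3 (0.007). When each kidney was left out, the difference ranged from -0.008 to 0.085 for Slc2a3, -0.058 to 0.002 for Tpi1, -0.04 to 0.006 for Ldha, -0.005 to 0.049 for Pdk2, -0.007 to 0.303 for Pdk4, -0.082 to 0.043 for Pfkfb3 and -0.007 to 0.063 for Fbp1. The other 28 members kept their sign in all alternatives. Signals near the negative controls (Slc2a3, Hk2, Hk3, Eno2) limit the size of their differences.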
